A study of Homo sapiens with 24 samples.

Results

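RNA bound to the protein AGO2 was compared between LNCaP cells that had received a plasmid for the microRNA miR-130a and LNCaP cells that had received a plasmid for miR-205. The comparison rests on 6 of the 24 arrays of the series, 3 labelled miR-130a and 3 labelled miR-205, chosen by their labels alone, and no scramble control array enters it. Words such as raised, rose, lowered and fell therefore mean higher or lower after miR-130a than after miR-205. They name no change from untreated or control cells. Which microRNA moved a transcript cannot be told from these arrays. LNCaP cells come from a prostate cancer, which the labels describe as early stage, and are of luminal type. Both groups were nucleofected with 2.5 µg of plasmid DNA for their microRNA, RNA was recovered by AGO2 co-immunoprecipitation, and 2 µg of RNA went onto an Affymetrix oligonucleotide array. Total RNA from cells given the same plasmids, again 3 arrays for miR-130a and 3 for miR-205, is set beside the AGO2-bound values. The levels of the supplied microRNAs themselves were not analysed here. The arrays are labelled as biological replicates, with no word on whether they came from separate cultures, so the p-values measure only the spread between these arrays, which may be technical.

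AGO2 is an Argonaute protein. It holds a microRNA, and the microRNA pairs through its seed, the bases just after its 5′ end, with sites in messenger RNAs, most often in their 3′ untranslated regions. Paired transcripts are usually translated less and decay faster, so a target can be enriched with AGO2 while its total level falls. Precipitated AGO2 carries the transcripts of every microRNA in the cell, and a change of a transcript's total level can also change how much of it is recovered.

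The seeds of the microRNAs are shown because they set which transcripts each could pair with. The mature sequence of miR-205 and sequences of the miR-130 family, from RefSeq (GRCh38.p14), follow with the seed, bases 2 to 8, in capitals. The printed family members miR-130b-3p and miR-301a-3p share the seed AGUGCAA, by which the miR-130 family is defined. The 5p strand of miR-130a, the strand usually discarded, is given from its own locus.
hsa-miR-130b-3p: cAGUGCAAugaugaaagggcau
hsa-miR-301a-3p: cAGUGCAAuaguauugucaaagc
hsa-miR-130a-5p: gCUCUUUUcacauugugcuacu
hsa-miR-205-5p: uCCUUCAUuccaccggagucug
The loci lie at chr22:21653354-21653375 on the plus strand for miR-130b-3p, chr17:59151149-59151171 on the minus strand for miR-301a-3p, chr11:57641212-57641233 on the plus strand for miR-130a-5p and chr1:209432166-209432187 on the plus strand for miR-205-5p. The miR-130 family seed AGUGCAA and the miR-205 seed CCUUCAU differ, so the 2 plasmids were for microRNAs of different families.

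Some properties of the arrays moved with the groups. The lowest deposited value was 2.344895 on all miR-130a arrays and 2.347327 on all miR-205 arrays, AGO2-bound and total alike, so the groups appear to come from separate normalization runs. Run and transfection cannot be told apart in any difference given here between miR-130a and miR-205 within one kind of RNA. The difference between 3′ and 5′ probe sets of ACTB, which grows as signal concentrates at the 3′ end, was 2.22 to 2.78 on the miR-130a AGO2 arrays and 3.20 to 3.94 on the miR-205 AGO2 arrays (log2). For GAPDH it was 1.20 to 1.30 on the miR-130a AGO2 arrays and 1.38 to 1.72 on the miR-205 AGO2 arrays. On the total RNA arrays ACTB was at 2.00 to 2.15 after miR-130a and 2.03 to 2.15 after miR-205. GAPDH was there at 0.63 to 0.77 after miR-130a and 0.80 to 0.81 after miR-205. The part of the RNA quality difference between the AGO2 arrays in the results below was not tested. Arrays of one group correlated at 0.985 to 0.990 for miR-130a and 0.979 to 0.987 for miR-205, and arrays of different groups at 0.867 to 0.902 (Pearson's r across genes).

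Markers of the labelled cell type were present: transcripts for the prostate proteins KLK3, KLK2, ACP3, TMPRSS2 and the keratins KRT8 and KRT18 were all well above the floor in both groups. Of 14 markers of basal, stromal, blood and endothelial cells on the array, 10 lay at the floor on all 6 AGO2 arrays, KRT5, KRT14, DCN, LUM, PTPRC and CD14 among them. The summed level of the 14 markers was 6.31 to 6.38 on the miR-130a arrays and 6.54 to 6.58 on the miR-205 arrays (log2 of the sum). Floor values make up much of that sum. COL1A1, the brightest, had a mean of 3.42 after miR-130a and 4.38 after miR-205. Its other probe sets were dimmer, near the floor, with differences of 0.16, 0.02 and -0.0024. VIM was also lower after miR-130a (2.53 against 3.31), and COL3A1 was higher (3.04 against 2.80).

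AGO2-bound RNA differed widely between the transfections. In limma's fit to the 6 arrays, 3163 of 6782 genes had an adjusted p under 0.05 (Benjamini-Hochberg over all genes tested), which is 46.6% of them. Of these, 1621 genes (23.9%) were higher after miR-130a and 1542 (22.7%) were lower. A difference of at least 2-fold was called at 1429 genes, 708 of them higher and 721 lower, and one of at least 4-fold at 365 genes, 165 higher and 200 lower. The median difference over all genes tested was 0.02 (log2), and the median size in either direction 0.44. The 3 miR-130a arrays and the 3 miR-205 arrays did not overlap at 3837 genes, 56.6% of those tested, and in total RNA the arrays of the groups did not overlap at 3787 genes, 55.8%. With 46.6% of all genes called, a call on one gene says little by itself, and each gene group below is read against these background shares.

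The plot of the 24 genes with the largest differences shows that the upper end was made of interferon-induced genes and the lower end of zinc finger genes together with a few unrelated ones.

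**Figure D1:**
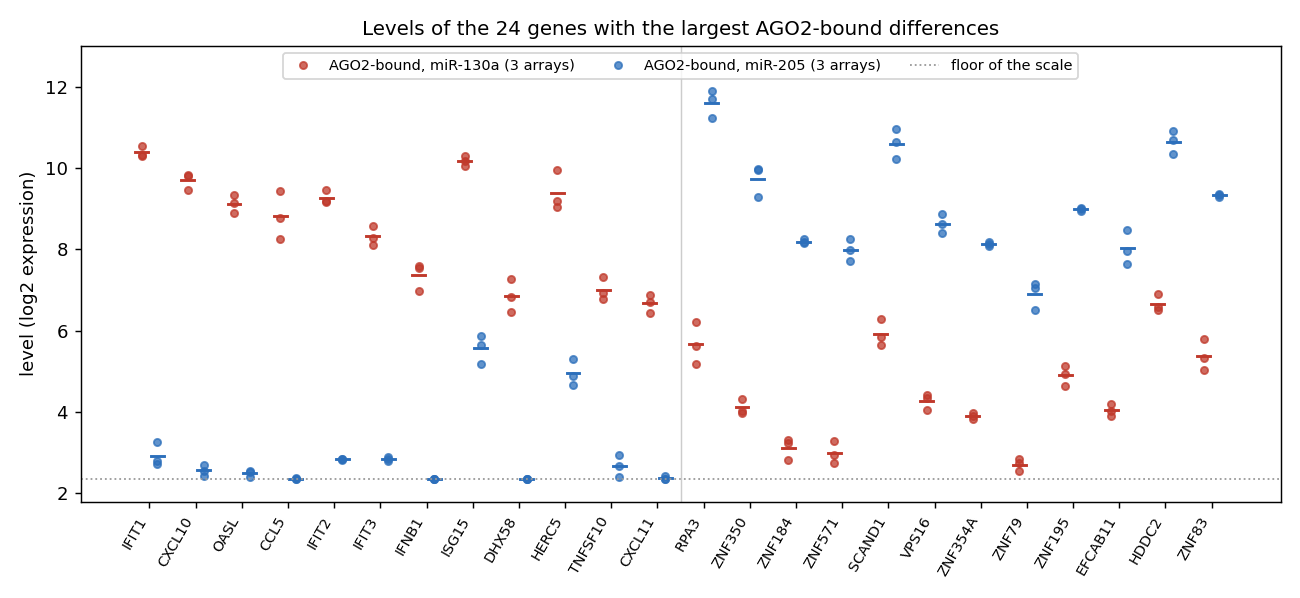
Level (log2 expression, vertical axis) of the 12 genes most raised and the 12 most lowered in AGO2-bound RNA after miR-130a, with 1 point per array, a bar at the mean of 3 arrays, miR-130a left of miR-205 for each gene, and a dotted line at the floor of the scale. IFIT1 lies at 10.30 to 10.55 on the miR-130a arrays and 2.73 to 3.27 on the miR-205 arrays, and RPA3 at 5.19 to 6.21 on the miR-130a arrays and 11.23 to 11.88 on the miR-205 arrays.

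Interferon response genes were the most raised group in AGO2-bound RNA after miR-130a. These genes encode antiviral effectors, RNA sensors and chemokines, and type I interferon, itself induced when a cell senses foreign nucleic acid, switches them on together. Of 58 listed genes on the array 43 passed the filter on signal, and 40 of them were higher and 0 lower, with a median difference of 2.21 (log2), against 23.9% higher and a median of 0.02 over all genes. The filter took the mean over all 24 arrays, so genes high in a single group could pass through that group. Without that filter 39 of the 58 were higher and the median was 1.43, with 2899 of 11963 genes called. In total RNA 43 of 43 were higher, with a median of 2.22, against 23.4% of all genes. More responding cells and more RNA per cell cannot be told apart in RNA from whole cultures.

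Among the effectors, IFIT1, which binds foreign RNA lacking the host's cap marks, was at 10.30, 10.55 and 10.32 on the miR-130a arrays and at 2.73, 3.27 and 2.79 on the miR-205 arrays (log2 level, AGO2-bound). The groups lay far apart, a difference of 7.46 ± 0.18 (log2 ± SE, limma adjusted p = 4.1e-08), or 176-fold. IFIT2, of the same family, was at 9.16, 9.47 and 9.19 after miR-130a and at 2.84, 2.84 and 2.83 after miR-205, a difference of 6.43 ± 0.14. OASL, a relative of the enzymes that make the messenger 2-5A, was 6.63 ± 0.16 higher. ISG15, a ubiquitin-like protein joined to others during infection, was at 10.04, 10.17 and 10.29 after miR-130a and at 5.87, 5.64 and 5.17 after miR-205. HERC5, the ligase that attaches ISG15, rose by 4.43 ± 0.26, and every miR-130a array again lay above every miR-205 array.

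The signals that spread the response were raised as well. IFNB1, interferon beta itself, was at 7.59, 7.55 and 6.99 on the miR-130a AGO2 arrays and at the floor on all 3 miR-205 AGO2 arrays, so its difference was at least 5.03 (log2). The chemokine CXCL10, which draws T cells, rose by 7.13 ± 0.16 with no overlap of the groups. CCL5, another such chemokine, was at 8.25, 9.43 and 8.77 after miR-130a and at the floor after miR-205, a difference of at least 6.46. CXCL11, with 2 of its 3 miR-205 arrays at the floor, rose by 4.31 ± 0.15, a size that the floor limits. TNFSF10, the death ligand TRAIL, rose by 4.34 ± 0.19. Among the sensors of foreign RNA, RIGI was at 5.79, 6.42 and 6.47 after miR-130a and at 2.54, 2.55 and 2.40 after miR-205, and IFIH1 rose by 2.36 ± 0.17. DHX58, which regulates both sensors, was at 6.45, 7.27 and 6.83 after miR-130a and at the floor after miR-205, a difference of at least 4.50.

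The 3 interferon members that were not called were TRIM21 at 0.34 (adjusted p = 0.057), TAP2 at 0.41 (adjusted p = 0.16) and SP110 at -0.33 (adjusted p = 0.33), all by limma with Benjamini-Hochberg adjustment. With the replicate number as a block TRIM21 and TAP2 passed the test (adjusted p = 0.049 and 0.039, limma), and SP110 did not (adjusted p = 0.19, limma). SP110 was the exception to the direction: its miR-130a arrays lay at 4.40, 4.49 and 4.36 and its miR-205 arrays at 4.09, 5.18 and 4.97, while in total RNA it was higher by 1.40.

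Set beside total RNA, the interferon genes fell into those with larger and those with smaller differences in the AGO2-bound fraction. The AGO2-bound difference minus the total RNA difference was taken from 12 arrays. It compares AGO2-bound with total RNA inside each normalization run, so an offset shared by both kinds of RNA in a run cancels. A difference found on the AGO2 arrays alone, such as that between probe sets of ACTB, does not cancel. Over all genes this double difference was called at 2911 genes (42.9%), 1363 of them higher (20.1%) and 1548 lower (22.8%). The balance turned with the scaling: 46.8% of the double difference calls were higher as deposited, and 53.8% of 2989 calls with arrays centred on their medians. Of the 43 interferon members 7 were higher and 14 lower, with a median of -0.42. DHX58 had the highest named value, 3.61 (adjusted p = 1.4e-08, limma), with an AGO2-bound difference of at least 4.50 and a total RNA difference of at least 0.89. IFNB1 was at 1.95, IFIT1 at 1.44 and ISG15 at 1.34. On the other side CXCL11 was at -2.45, RSAD2, an antiviral enzyme, at -1.91 and RIGI at -1.69. Where miR-205 arrays lay at the floor in both kinds of RNA, as for IFNB1, DHX58 and RSAD2 and for most of the CXCL11 arrays, these values compare bounds.

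The promoters of interferon genes carry a shared element, the ISRE, which the complex of STAT proteins and IRF9 binds. It was searched as 2 copies of GAAA with any 2 bases between them, on both strands of the 250 bases before each RefSeq start (GRCh38.p14), overlaps with other motifs allowed. The letters were present in 20 of 36 interferon members with a promoter entry (55.6%), and in 146 of 5717 genes tested (2.55%). Among genes at least 4-fold higher in AGO2-bound RNA after miR-130a they were present in 15 of 141 (10.6%), and among genes at least 4-fold lower in 4 of 165 (2.42%). Stretches of 120 bases that end at the base before the start are printed for 4 called interferon members of small p with a match in that stretch. Not every member with a match was eligible. Matched letters are in capitals, which show as copies of TTTC where the match is on the minus strand.
IFIT1: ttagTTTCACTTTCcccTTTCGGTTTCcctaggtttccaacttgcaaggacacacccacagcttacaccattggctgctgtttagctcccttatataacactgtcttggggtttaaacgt
ISG15: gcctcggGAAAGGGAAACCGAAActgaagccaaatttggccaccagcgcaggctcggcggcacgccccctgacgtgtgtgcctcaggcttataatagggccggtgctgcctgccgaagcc
IFI44: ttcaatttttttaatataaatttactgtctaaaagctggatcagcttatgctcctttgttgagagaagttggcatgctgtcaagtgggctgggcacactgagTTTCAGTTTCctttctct
HERC5: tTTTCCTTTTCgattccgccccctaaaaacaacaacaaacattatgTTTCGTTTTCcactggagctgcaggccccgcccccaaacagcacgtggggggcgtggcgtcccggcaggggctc
They lie on the plus strand at chr10:89392503-89392622 (IFIT1), chr1:1013377-1013496 (ISG15), chr1:78649669-78649788 (IFI44) and chr4:88456999-88457118 (HERC5). IFIT1 and HERC5 hold 2 separate matches, ISG15 holds 2 that overlap, and IFI44 holds 1. IFI44, an interferon-induced protein of the cytoplasm, was 3.75 ± 0.19 higher in AGO2-bound RNA after miR-130a.

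Cell cycle and mitosis genes were the second group in which most members were raised. Of 70 members, all on the array and tested, 52 were higher and 2 lower after miR-130a in AGO2-bound RNA. The median difference was 1.28 (log2), and of all genes 23.9% were higher and 22.7% lower. In total RNA 68 of the 70 were higher and 0 lower, with a median of 1.65, against 23.4% and 18.7% of all genes. CDK1, the kinase that drives entry into mitosis, was at 11.19, 11.83 and 10.88 on the miR-130a arrays and at 8.16, 6.83 and 7.28 on the miR-205 arrays, a difference of 3.88 ± 0.35 (adjusted p = 3.8e-05, limma). Its groups did not overlap, and its total RNA difference was 1.69. CCNB1, a cyclin that activates CDK1, was 3.21 ± 0.34 higher. RRM1, a subunit of the enzyme that makes deoxynucleotides, was at 9.34, 9.43 and 9.40 after miR-130a and at 7.48, 7.27 and 7.16 after miR-205. The mitotic kinesins KIF14 and KIF4A were 1.92 ± 0.14 and 1.56 ± 0.14 higher.

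The cell cycle members called lower were GMNN and CCND1. GMNN, the geminin that blocks a second round of replication, was at 7.37, 7.08 and 6.77 on the miR-130a AGO2 arrays and at 8.61, 8.57 and 7.85 on the miR-205 AGO2 arrays, and fell by 1.27 ± 0.24 on the log2 scale, while its total RNA was higher by 1.39. CCND1, cyclin D1, fell by 0.44 in AGO2-bound RNA and was 1.12 higher in total RNA. Both genes had fully separated arrays in each kind of RNA. MKI67, the proliferation marker Ki-67, and MCM6, of the replicative helicase, were not called in AGO2-bound RNA, at 0.33 (adjusted p = 0.067) and 0.04 (adjusted p = 0.88, limma), and were higher by 2.06 and 1.52 in total RNA. In the double difference 4 cell cycle members were higher and 23 lower, with a median of -0.36, against 20.1% and 22.8% of all genes. The E2F element searched as TTCCCGCC in the same windows and on both strands was present in 9 of 58 members (15.5%) and in 5.11% of all genes tested.

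Genes of the DNA replication fork included a few falls beside more rises. RPA3, the smallest of the 3 subunits of the single-strand DNA binding protein RPA, had the largest fall of any gene tested. It was at 5.63, 5.19 and 6.21 on the miR-130a AGO2 arrays and at 11.88, 11.68 and 11.23 on the miR-205 AGO2 arrays, and fell by 5.92 ± 0.27 on the log2 scale (adjusted p = 1.3e-06, limma), which is 60.7-fold lower. Total RPA3 was at 8.64, 8.62 and 8.56 after miR-130a and at 7.17, 7.68 and 7.50 after miR-205, so the total RNA moved the other way, by 1.16. The other RPA subunits did not follow RPA3: RPA1 was at -0.17 (adjusted p = 0.35) and RPA2 at 0.05 (adjusted p = 0.90, limma), and their arrays overlapped. Of 20 replication genes, 9 were higher and 3 lower in AGO2-bound RNA, against 23.9% and 22.7% of all genes. In total RNA 18 were higher and 0 lower, against 23.4% and 18.7% of all genes. PRIM1, the primase subunit that starts new strands, fell by 1.53 in AGO2-bound RNA while its total RNA was 2.04 higher. FEN1, which trims Okazaki fragments, and PCNA, the sliding clamp, rose by 1.93 and 1.45 with total RNA differences of 1.59 and 1.00.

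**Figure D2:**
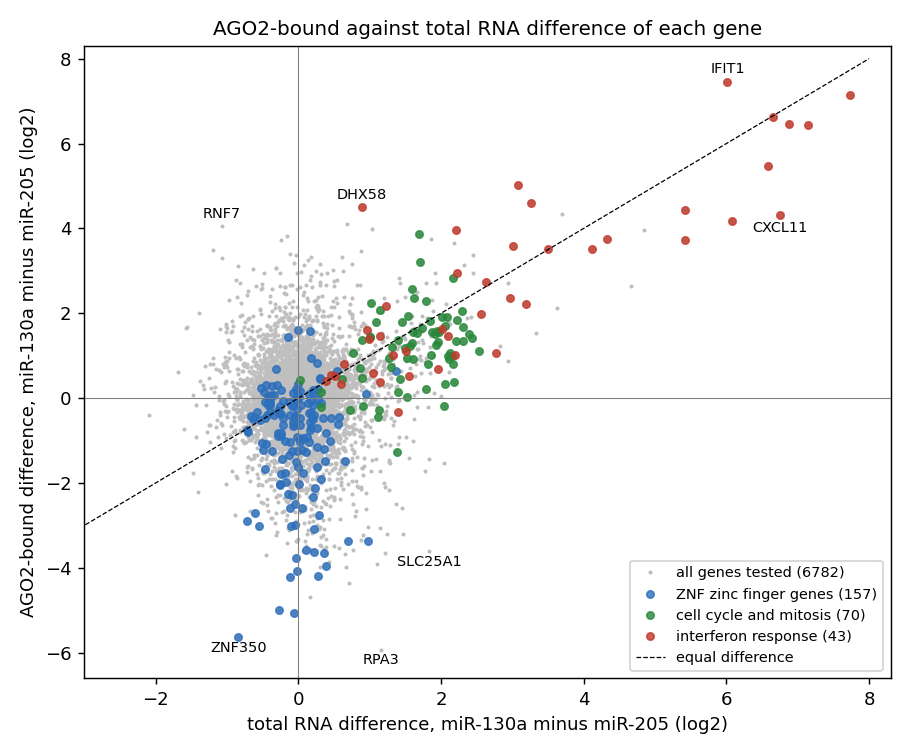
Difference in AGO2-bound RNA against difference in total RNA for each gene (both log2, miR-130a minus miR-205), with 6782 genes in grey, the 157 ZNF, 70 cell cycle and 43 interferon genes in colour, and a dashed line of equal differences. Interferon and cell cycle genes lie to the upper right, while ZNF genes run down the vertical axis at total RNA differences near 0.

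Zinc finger genes were the largest group lowered in AGO2-bound RNA after miR-130a, or higher after miR-205. The ZNF symbols cover mostly DNA-binding proteins with many repeated C2H2 fingers, a family that grew by duplication and lies in clusters on chromosome 19. Of 231 on the array 157 passed the filter on signal, and of these 85 were lower and 9 higher, with a median of -0.55 (log2), against 22.7% lower over all genes. Without the filter 83 of the 231 were lower and the median was -0.28, with 2899 of 11963 genes called in either direction. In total RNA 33 were lower and 19 higher, with a median of -0.04, against 18.7% lower and 23.4% higher over all genes. The double difference called 77 lower and 10 higher, with a median of -0.60, against 22.8% lower and 20.1% higher over all genes.

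ZNF354A had the smallest p of the family. It was at 3.91, 3.82 and 3.99 on the miR-130a AGO2 arrays and at 8.08, 8.18 and 8.12 on the miR-205 AGO2 arrays, and fell by 4.22 ± 0.13 (adjusted p = 2.5e-07, limma). Its total RNA was at 4.50, 4.65 and 4.55 after miR-130a and at 4.61, 4.71 and 4.75 after miR-205, and was not called. ZNF350, a repressor that binds BRCA1, was at 4.03, 3.98 and 4.32 after miR-130a and at 9.30, 9.94 and 9.97 after miR-205, the largest fall of the family at 5.62 ± 0.21. ZNF184 fell by 5.06 ± 0.16 and ZNF571 by 5.00 ± 0.19, with total RNA differences of -0.06 and -0.27. In all 4 the 3 miR-130a arrays lay below the 3 miR-205 arrays by several log2 units. ZNF79, ZNF195, ZNF83 and ZNF551 fell by 4.19, 4.08, 3.95 and 3.66. SCAND1, a gene for a SCAN domain protein without zinc fingers that pairs with such zinc finger proteins, was at 5.84, 5.64 and 6.29 after miR-130a and at 10.64, 10.95 and 10.21 after miR-205. THAP12, which has a zinc-binding domain of another kind, fell by 3.64 while its total RNA rose by 1.22.

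The ZNF genes were also counted by chromosome. On chromosome 19, 44 of 69 ZNF genes were lower (63.8%) and 3 higher, with a median of -0.83 (log2). On other chromosomes 41 of 88 were lower (46.6%) and 6 higher, with a median of -0.46. The other genes of chromosome 19 were lower in 117 of 376 (31.1%) and higher in 46, with a median of -0.19. These shares were not tested against each other, and zinc finger genes of one cluster resemble each other in sequence, so their probe sets are not independent. The 9 ZNF genes that were higher included ZNF706, ZNF277 and ZNF292. ZNF706, a short protein with a single finger, was at 10.08, 10.41 and 10.11 after miR-130a and at 8.74, 8.74 and 8.80 after miR-205.

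Histone genes held both rises and falls. Of 49 on the array 23 passed the filter on signal, and of these 9 were lower and 5 higher in AGO2-bound RNA. Their median was -0.32, and of all genes 22.7% were lower and 23.9% higher. Without the filter 10 of the 49 were lower and the median was -0.0024, with 2899 of 11963 genes called in either direction. All 7 H2B genes tested were lower, and of 8 H2A genes 2 were lower and 2 higher. H2BC6 was at 8.02, 7.65 and 7.89 on the miR-130a arrays and at 11.24, 11.15 and 11.30 on the miR-205 arrays, and fell by 3.38 ± 0.15 (adjusted p = 1.1e-06, limma). H2BC12L, H2BC9 and H2BC3 fell by 3.28, 3.33 and 3.17. The total RNA differences of these 4 genes were 0.09, 0.32, -0.01 and 0.19 for H2BC6, H2BC12L, H2BC9 and H2BC3. H2B genes are nearly identical in their coding parts and probe sets can share their signal, so which copies changed is uncertain. H2AC17, for an H2A histone, and H2AX, the variant phosphorylated at DNA breaks, rose by 1.99 and 1.43, and neither overlapped between the groups.

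Subunits of the same large complex included rises and falls, as did all genes tested. The shares over all genes were 23.9% higher and 22.7% lower in AGO2-bound RNA, and 23.4% and 18.7% in total RNA. The cytosolic ribosome, the mitochondrial ribosome, the respiratory chain and the proteasome are assembled from many proteins whose transcripts are usually made in step. In total RNA the differences of their genes lay close together, apart from RPL26L1, a paralog of RPL26, at 1.82, and in AGO2-bound RNA they were spread, as the plot of subunit genes shows. Over all genes tested the SD of the differences was 0.97 in AGO2-bound and 0.567 in total RNA. The AGO2-bound SD of cytosolic ribosomal protein genes, 1.01, was close to that of all genes. In AGO2-bound RNA 51.9% of cytosolic and 54.2% of mitochondrial ribosomal protein genes were called, against 46.6% of all genes. The shares called were 63% for complex I, 61.8% for complexes III to V and 71% for the proteasome.

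**Figure D3:**
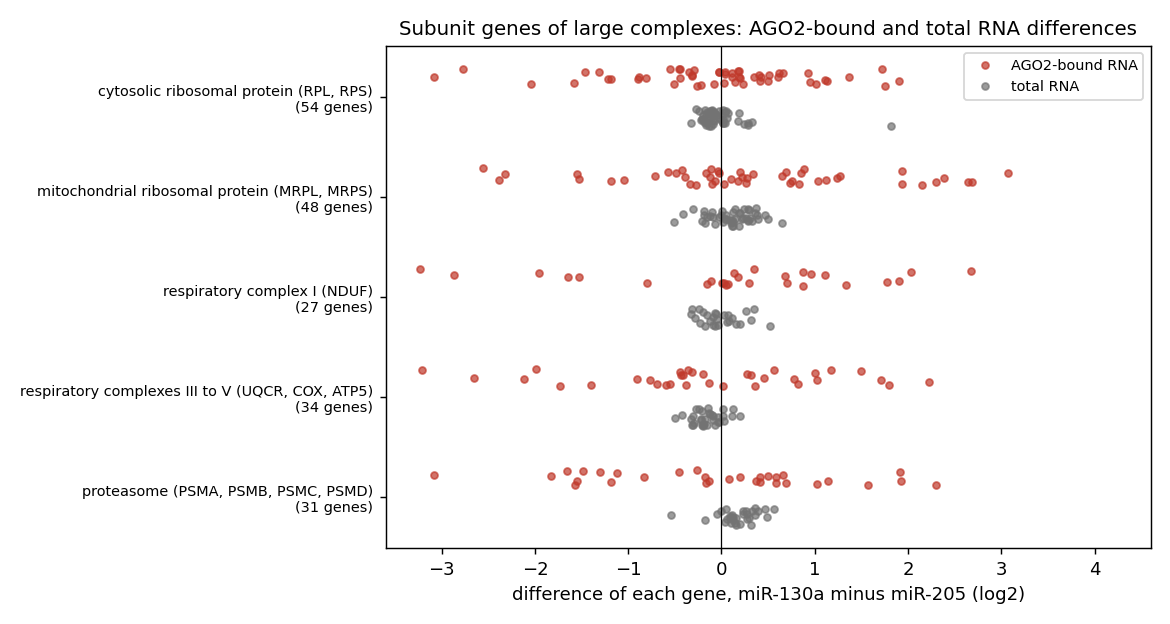
Difference of each subunit gene (log2, miR-130a minus miR-205; 1 point per gene, jittered vertically) in 5 groups of complexes, AGO2-bound RNA in red above total RNA in grey. The SD over members is 1.01 in AGO2-bound and 0.292 in total RNA for the cytosolic ribosome, and 1.42 and 0.214 for respiratory complex I.

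Cytosolic ribosomal protein genes were higher in 14 and lower in 14 of 54, with a median of 0.04. RPS10, of the small subunit, was at 11.04, 11.01 and 11.51 on the miR-130a arrays and at 14.35, 14.20 and 14.26 on the miR-205 arrays, and fell by 3.09 ± 0.17. Of 3 other RPS10 probe sets, 2 of like brightness gave -3.23 and -2.53, and 1 far dimmer gave 0.83. RPL3, of the large subunit, was at 12.20, 12.44 and 12.10 after miR-130a and at 10.47, 10.54 and 10.02 after miR-205, a rise of 1.90 ± 0.18. RPL19 and RPS9 fell by 2.77 and 2.04, and RPL30 rose by 1.73. Ribosomal protein genes have many pseudogenes, and their probe sets can also read these.

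Mitochondrial ribosomal protein genes were higher in 18 and lower in 8 of 48, with a median of 0.19. MRPL28 was at 6.50, 7.50 and 6.90 on the miR-130a arrays and at 3.87, 4.20 and 3.61 on the miR-205 arrays, a rise of 3.07 ± 0.26. MRPL9, of the same large subunit, was at 6.34, 6.32 and 6.42 after miR-130a and at 8.77, 9.20 and 8.77 after miR-205, and fell by 2.56 ± 0.16. Neither pair of groups overlapped, and the total RNA differences were -0.31 for MRPL28 and 0.10 for MRPL9. The small-subunit genes MRPS35 and MRPS33 rose by 2.68 and 2.16. The SD over members was 1.30 in AGO2-bound and 0.237 in total RNA.

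Genes of respiratory complex I, which feeds electrons into the mitochondrial chain, were higher in 11 and lower in 6 of 27. NDUFA7 was at 10.04, 10.14 and 9.68 on the miR-130a arrays and at 7.60, 7.31 and 6.93 on the miR-205 arrays, a rise of 2.67 ± 0.20. NDUFS7, a catalytic core subunit, was at 4.69, 4.29 and 4.89 after miR-130a and at 8.43, 8.39 and 6.76 after miR-205, and fell by 3.23 ± 0.41. NDUFA8 and NDUFB4 fell by 2.87 and 1.96, and NDUFA1 rose by 1.90. For complexes III to V, 10 of 34 genes were higher and 11 lower in AGO2-bound RNA, and 0 higher and 12 lower in total RNA. COX6A1, of cytochrome oxidase, rose by 2.23 ± 0.15, while ATP5F1D, of the ATP synthase rotor, fell by 3.21 ± 0.23 and ATP5IF1, the inhibitor of that enzyme, by 2.65. UQCRQ, of complex III, fell by 2.12.

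Proteasome subunit genes were higher in 12 and lower in 10 of 31 in AGO2-bound RNA, and higher in 14 and lower in 1 in total RNA. PSMB6, a catalytic subunit, was at 8.31, 8.17 and 8.13 on the miR-130a arrays and at 11.61, 11.42 and 10.84 on the miR-205 arrays, and fell by 3.08 ± 0.20. PSMC3, an ATPase of the cap, was at 7.32, 7.17 and 6.67 after miR-130a and at 4.73, 4.90 and 4.65 after miR-205, a rise of 2.30 ± 0.19. The ATPase PSMC2 fell by 1.57 and the lid subunit PSMD12 rose by 1.57.

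Transcripts of the microRNA machinery itself included more rises than falls. Of 24 tested, 12 were higher and 2 lower in AGO2-bound RNA, against 23.9% and 22.7% of all genes, with a median of 0.48. In total RNA 5 were higher and 4 lower, with a median of -0.07, against 23.4% and 18.7% of all genes. Leaving out 1 array left 8 to 11 called higher in AGO2-bound RNA, and 9 were called higher without the filter on signal. Over all genes the count of calls fell as well, from 3163 to between 2430 and 3002 with 1 array left out. AGO3, another Argonaute, was at 5.62, 5.45 and 5.20 on the miR-130a arrays and at 3.67, 3.92 and 3.74 on the miR-205 arrays, a rise of 1.65 ± 0.16 (adjusted p = 5.3e-05, limma), with a total RNA difference of -0.13. FMR1, an RNA-binding protein of neurons and other cells, was at 7.23, 7.69 and 7.58 after miR-130a and at 5.49, 4.99 and 5.76 after miR-205. PRKRA, a partner of Dicer, rose by 1.52 ± 0.21 and ADAR, which edits adenosines in double-stranded RNA and is itself induced by interferon, by 0.89 ± 0.13. TNRC6B, a GW182 protein that joins Argonaute to the deadenylases, was at 5.28, 6.08 and 5.84 after miR-130a and at 4.69, 5.08 and 5.08 after miR-205, a rise of 0.78 while its total RNA fell by 1.02. CNOT1, CNOT2 and CNOT7 of the CCR4-NOT deadenylase rose by 0.62, 0.82 and 0.50. DROSHA, the nuclear enzyme that cuts primary microRNA transcripts, fell by 0.95 ± 0.25 (adjusted p = 0.014, limma), and the decapping factor LSM1 by 0.73. DICER1 was at 0.27 (adjusted p = 0.47) and AGO1 at 0.39 (adjusted p = 0.11), with overlapping arrays.

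Known targets of each microRNA, listed from general knowledge, gave small counts. Of 8 listed miR-130a targets tested, 3 were higher and 0 lower, with a median of 0.19, against 23.9% higher and 22.7% lower over all genes. ACVR1, a BMP type I receptor, was at 7.94, 8.20 and 8.38 on the miR-130a arrays and at 5.94, 5.93 and 6.34 on the miR-205 arrays, a rise of 2.10 ± 0.18 (adjusted p = 2.8e-05, limma), while its total RNA fell by 0.53. KLF4, a transcription factor, rose by 2.13 ± 0.28 and its total RNA by 3.62, and SMAD4, which carries TGF-beta and BMP signals to the nucleus, rose by 0.78. For miR-205, 3 of 19 listed targets were lower after miR-130a and 8 higher, with a median of 0.20, so the count of lower targets did not exceed the share over all genes. BCL6, a transcriptional repressor, was at 7.60, 7.67 and 8.05 after miR-130a and at 9.98, 10.54 and 10.77 after miR-205, and fell by 2.66 ± 0.22. SMAD1, which transmits BMP signals, was at 5.81, 5.69 and 6.24 after miR-130a and at 8.43, 8.61 and 8.07 after miR-205, and fell by 2.46 ± 0.20. VEGFA, the vascular growth factor, fell by 1.49 ± 0.16. In all 3 the miR-205 arrays lay above the miR-130a arrays without overlap, and the total RNA differences were -0.68 for BCL6, 0.21 for SMAD1 and -0.17 for VEGFA. The miR-205 targets that were higher after miR-130a were PHC2 at 1.24, CCN1 at 1.11, SMAD4 at 0.78, HMGB3 at 0.65, ITGA5 at 0.63, YES1 at 0.49, E2F1 at 0.48 and MED1 at 0.46. The calls of YES1, E2F1 and MED1 were lost when replicate 2 of miR-130a was left out, with adjusted p = 0.13, 0.051 and 0.083 (limma). SMAD4 stands on both lists.

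Signalling lists were called in shares near the 46.6% of all genes: 43.8% for PI3K, AKT and mTOR, 45.7% for MAPK and 50% for TGF-beta and BMP genes. In the PI3K, AKT and mTOR list 4 of 32 genes were higher and 10 lower. MLST8, a subunit of both mTOR complexes, was at 6.04, 5.95 and 5.94 on the miR-130a arrays and at 9.67, 9.71 and 9.17 on the miR-205 arrays, and fell by 3.54 ± 0.17. LAMTOR2 and LAMTOR3, which bind each other in the Ragulator scaffold on lysosomes, went opposite ways: LAMTOR2 fell by 3.48 ± 0.25 and LAMTOR3 rose by 1.71 ± 0.15. EIF4EBP1, the translation repressor that mTOR phosphorylates, fell by 2.15. In the MAPK list 10 of 35 were higher and 6 lower. The GTPase HRAS was at 5.92, 6.01 and 5.76 after miR-130a and at 9.20, 9.32 and 8.78 after miR-205, and fell by 3.21 ± 0.17, and its total RNA rose by 1.24. SOS1, which loads RAS with GTP, and the kinase RPS6KA3 rose by 1.33 and 1.36, with total RNA differences of 0.20 and -0.98. The TGF-beta and BMP list had 4 of 24 higher and 8 lower, with INHBB, an activin subunit, 2.25 higher and SMAD2 lower by a difference of -1.03.

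Lists of vesicle sorting genes differed in their balance. Of 18 ESCRT genes, which sort membrane proteins into endosomes, 8 were lower and 3 higher, with a median of -0.27, or -0.15 without replicate 2 of miR-205. HGS fell by 2.05 ± 0.22, its partner STAM fell by 1.26 ± 0.15, and STAM2, the paralog of STAM, rose by 1.33 ± 0.18. CHMP2B was at 7.74, 7.75 and 7.95 on the miR-130a AGO2 arrays and at 8.99, 9.01 and 9.71 on the miR-205 AGO2 arrays, and fell by 1.42, while its total RNA rose by 1.84. VPS16, a core subunit of the tethering complexes for lysosomes, was at 4.05, 4.42 and 4.36 after miR-130a and at 8.62, 8.86 and 8.39 after miR-205, and fell by 4.35 ± 0.17, and of 25 VPS genes 7 were lower and 1 higher. Sorting nexins were higher in 5 and lower in 2 of 15, and RAB GTPases higher in 9 and lower in 10 of 34, against 23.9% and 22.7% of all genes. RNA polymerase subunits were lower in 10 and higher in 2 of 25, with a median of -0.41 in AGO2-bound RNA and 0.14 in total RNA. The AGO2-bound median was -0.16 without replicate 3 of miR-130a and -0.16 without the filter on signal, where 6 members were lower. POLR2G, of polymerase II, rose by 1.48, and POLR3E and POLR1D fell by 1.05 and 0.98.

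**Figure D4:**
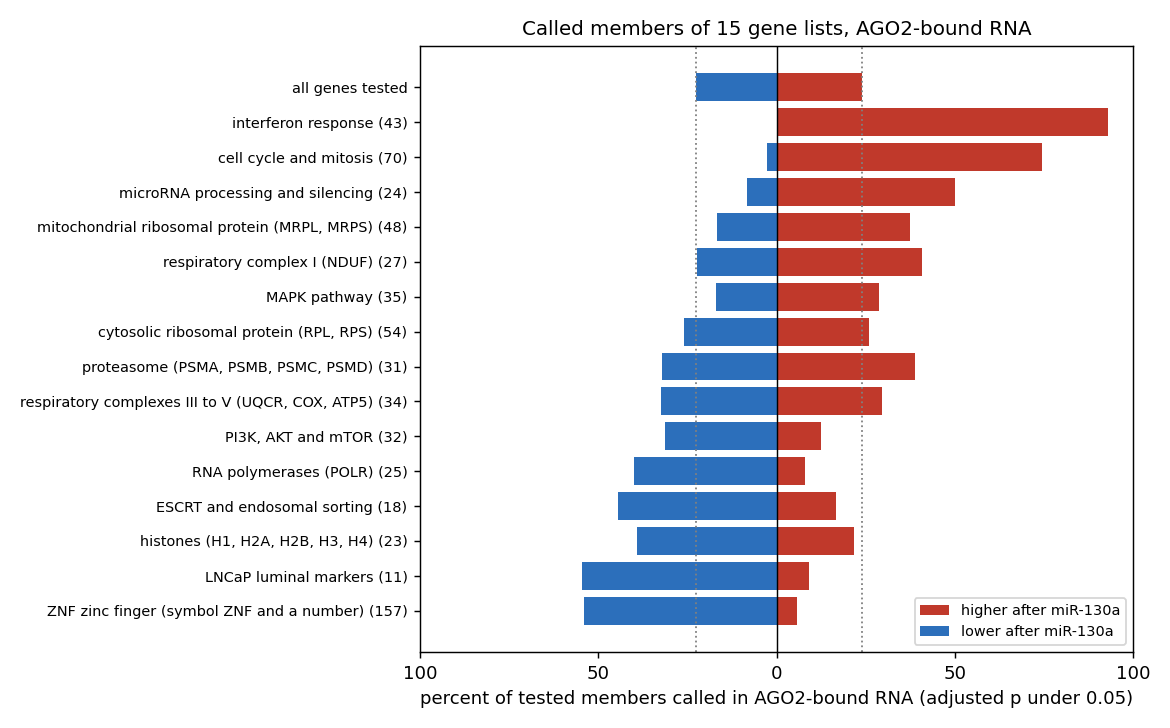
Percent of tested members called higher (right, red) and lower (left, blue) after miR-130a in AGO2-bound RNA for all genes tested and for 15 gene lists, member number in brackets, with dotted lines at the shares over all genes (23.9% higher, 22.7% lower). Interferon genes (40 of 43) have the longest bar to the right, and luminal markers (6 of 11) and ZNF genes (85 of 157) the longest bars to the left.

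Markers of luminal prostate cells were lower after miR-130a in 6 of 11 and higher in 1, against 22.7% and 23.9% of all genes. Their median was -0.66 in AGO2-bound RNA and 0.06 in total RNA. KRT8, the keratin of simple epithelia, was at 6.89, 6.77 and 6.98 on the miR-130a arrays and at 9.07, 9.98 and 9.24 on the miR-205 arrays, and fell by 2.55 ± 0.23 (adjusted p = 3.9e-05, limma), with a total RNA difference of 0.25. The kallikrein KLK2 fell by 2.29 ± 0.24, prostatic acid phosphatase ACP3 by 1.41 ± 0.14 and KLK3, the prostate-specific antigen, by 0.99 ± 0.15. Total RNA of KLK2 and KLK3 was also lower, by -0.56 and -0.79, and that of ACP3 was at 0.18 and not called (adjusted p = 0.057, limma). TMPRSS2, an androgen-induced protease, rose by 0.68. Androgen-responsive genes as a wider list were higher in 5 and lower in 8 of 28, against 23.9% and 22.7% of all genes. SMS, spermine synthase, and HPGD, which breaks down prostaglandins, rose by 1.70 and 1.35, and PMEPA1, an inhibitor of TGF-beta signalling, fell by 1.39. Of 36 androgen receptor coregulators, 3 were higher and 8 lower, against the same shares of all genes. TRIM24 and NCOA4 were lower by differences of -1.71 and -1.54, and PIAS1 was higher by 1.50.

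Stress and metabolic lists held rises and falls in similar number, in shares near those of all genes (23.9% higher, 22.7% lower). Called were 48.5% of the ATF4 and unfolded protein response list, 45.8% of the antioxidant list and 44% of the cholesterol and fatty acid list. Of 33 ATF4 and unfolded protein response genes, 8 were higher and 8 lower. CEBPG, a partner of ATF4, was at 8.14, 8.83 and 8.15 on the miR-130a arrays and at 5.35, 5.01 and 5.02 on the miR-205 arrays, a rise of 3.25 ± 0.21 with a total RNA difference of 0.13. TRIB3, which restrains ATF4, and XBP1, a transcription factor of the unfolded protein response, rose by 2.36 and 2.35, and SHMT2, a mitochondrial enzyme of serine use, fell by 2.90. In the antioxidant list 6 of 24 were higher and 5 lower. GCLM, the modifier subunit of the enzyme that begins glutathione synthesis, was at 9.76, 10.49 and 9.69 after miR-130a and at 6.20, 6.28 and 6.29 after miR-205, a rise of 3.72 ± 0.21. The catalytic subunit GCLC fell by 0.94, and KEAP1, which marks the antioxidant regulator NRF2 for destruction, fell by 2.50 ± 0.17. Cholesterol and fatty acid genes were higher in 5 and lower in 6 of 25, with the sterol enzyme NSDHL 1.66 higher and INSIG1, which retains the sterol sensor, lower by a difference of -2.08.

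The AGO2-bound and total RNA calls overlapped in part. Total RNA differed at 2856 genes (42.1%), 1589 higher (23.4%) and 1267 lower (18.7%), and 378 of them by at least 2-fold. With arrays centred on their medians, 40.4% of the total RNA calls were higher, against 55.6% as deposited, so that balance depends on the scaling. In AGO2-bound RNA the share of calls that were higher was 51.2% as deposited and also 51.2% when centred, but 48.8% with quantile normalization. Which direction held slightly more AGO2-bound calls thus depended on the scaling as well. Called in both were 1539 genes, 48.7% of the AGO2-bound calls and 53.9% of the total RNA calls. Of these, 558 were higher in both, 323 lower in both, 286 higher in AGO2-bound and lower in total RNA, and 372 lower in AGO2-bound and higher in total RNA. Across genes, which are not independent replicates, the differences correlated at Pearson's r = 0.24 and Spearman's rho = 0.11. A further description of the gap is that 594 genes were called with at least 2-fold in AGO2-bound RNA while their total RNA differed by less than 0.25 (log2) either way.

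The genes with the highest double difference were higher in AGO2-bound RNA and were lower or not called in total RNA. RNF7, a RING subunit of cullin ubiquitin ligases, was at 10.31, 10.31 and 10.12 on the miR-130a AGO2 arrays and at 6.26, 6.27 and 6.08 on the miR-205 AGO2 arrays. Its total RNA was at 6.71, 6.38 and 6.65 after miR-130a and at 7.72, 7.69 and 7.54 after miR-205. The groups were separate in both kinds of RNA and in opposite order, and the double difference was 5.12 (adjusted p = 2e-10, limma). NUDT9, which splits ADP-ribose, was 3.49 higher in AGO2-bound RNA and lower in total RNA by a difference of -1.19. ACAA1, a peroxisomal thiolase, and PRPSAP2, a regulator of nucleotide precursor synthesis, rose by 3.29 and 3.11 against total RNA differences of -1.06 and -0.85. TUBG1, the gamma-tubulin that seeds microtubules, was at 12.97, 12.93 and 12.71 after miR-130a and at 9.40, 8.96 and 8.81 after miR-205, with a total RNA difference of -0.16.

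At the low end stood RPA3 at -7.08, SLC25A1 at -5.44, VPS16 at -5.06, PCBD1 at -5.01, ZNF184 at -5.00 and THAP12 at -4.86. SLC25A1, the mitochondrial citrate carrier, was at 6.86, 6.43 and 6.28 on the miR-130a AGO2 arrays and at 10.34, 10.32 and 9.70 on the miR-205 AGO2 arrays, and fell by 3.60 ± 0.22, while its total RNA rose by 1.84. PCBD1, which recycles the cofactor of phenylalanine hydroxylase, fell by 3.90 ± 0.20 while its total RNA rose by 1.11. DENND1A, an activator of RAB GTPases, fell by 1.72 against a total RNA rise of 1.77. The reverse held for TBL1XR1, a subunit of the NCoR corepressor, and ADRA2A, an adrenergic receptor, which rose by 1.66 and 1.68 in AGO2-bound RNA against total RNA differences of -1.57 for each. EFCAB11 and HDDC2, both genes of little known function, completed the 12 largest falls in AGO2-bound RNA, where each fell by 3.98, with total RNA differences of 0.66 and 0.30. Of the genes called in AGO2-bound RNA, 9 lay at the floor on all 3 miR-205 arrays only, with CCL5, IFNB1, DHX58 and RSAD2 the brightest, and 1 lay at the floor on all 3 miR-130a arrays only, the noncoding RHPN1-AS1.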

How the data were processed

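Expression was measured on Affymetrix arrays in 24 samples, and 6 AGO2-bound arrays carry the comparison, with 6 total RNA arrays beside them. The authors deposited log2 expression per probe set, with R 2.9.0, GCRMA and RMA listed in the submitters' processing notes in no order, so the unit and scale are as deposited. No step was repeated. Values at the floor compress differences of dim transcripts, and each array is scaled, so a difference is relative to the other transcripts. Precision is set by having 3 arrays in a group, and arrays have no depth.

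Of 22277 probe sets, 19064 had 1 gene symbol, 1043 had several and 2108 had none, per the platform annotation, and 62 were controls. Each gene kept its probe set of highest mean over all 24 arrays. Genes at or above the median of probe set means (2.85 log2) were tested, 6782 of 11963. limma 3.58.1 in R 4.3.3 (lmFit, eBayes) fitted the 2 groups, with two-sided Benjamini-Hochberg adjusted p under 0.05 over all genes tested as a call. A gene was at the floor within 0.05 (log2). An exact permutation test of 3 against 3 arrays cannot go below 0.1. Scripts were tested on simulated data in which 200 of 6782 genes were changed, far fewer than were called here. Of changes of 1.5-fold 14.9% were recovered, of 2-fold 61.2% and of 4-fold 98.5%. A gene given as not called may therefore still differ.

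Replicate numbers are from the labels. Deviations of same-numbered AGO2 arrays from their group means correlated at 0.48, 0.13 and 0.46, which pairs them in these data, although no label states a pairing. For total RNA the values were 0.056, 0.064 and 0.021, which gives no pairing. The mean of the spiked control probe sets also climbed with replicate number on the AGO2 arrays. It was 6.59, 6.89 and 7.47 after miR-130a and 6.29, 6.78 and 7.95 after miR-205 (log2). On the total RNA arrays it lay between 5.77 and 6.11. The part of these shifts in the results was not tested. The main fit had no block.

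Genes named were the 12 largest called differences each way without overlap, the 6 largest double differences each way, up to 4 called members of smallest p in each of 45 lists, each called listed target, the 4 clearest opposite movements and the brightest genes at the floor in one group only, and every other gene named was chosen after its values were seen. Members and lists were chosen with earlier results of these data known. Alternatives covered the filter, probe set rule, scaling, variance model, block, thresholds and leaving out each array. Seed matches in transcripts and the miR-203 and scramble arrays were not used here.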

Additional observations from a re-analysis of the deposited data

Results flagged for a closer look

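The AGO2-bound difference between miR-130a and miR-205 departed from the total RNA difference, in the test of the difference between the 2 kinds of RNA, at 1363 genes in the higher and 1548 genes in the lower direction. With arrays centred on their medians 53.8% of 2989 such calls were in the higher direction, so the excess of lower calls depends on the scaling. The largest values in the higher direction (log2, AGO2-bound minus total RNA) were 5.12 for RNF7, 4.69 for NUDT9, 4.36 for ACAA1, 3.97 for TUBG1, 3.96 for PRPSAP2 and 3.96 for GCLM. In the lower direction they were -7.08 for RPA3, -5.44 for SLC25A1, -5.06 for VPS16, -5.01 for PCBD1, -5.00 for ZNF184 and -4.86 for THAP12. These 12 values rest on 3 arrays in each of 4 groups, and the cause of the departures was not tested.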

How the results depend on the processing

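Of 196 genes picked by the naming rules, 189 kept their direction and their call in all 15 alternatives and 0 reversed. The other 7 (E2F1, MED1, YES1, COPS4, COPS6, PFDN2 and COL1A1) lost a call in at least one. Genes named after their values were seen, such as RPL3, MRPL28 and DROSHA, were not among the 196. A threshold of at least 2-fold left 1429 of the AGO2-bound calls, 378 of the total RNA calls and 1550 of the double difference calls, and an adjusted p under 0.01 left 1642 total RNA calls. With the replicate block in the AGO2-bound fit 3718 genes were called, 3163 of them shared with the fit without it, and the block lost no call of a named gene. Of 9 genes named as not called it called 2, TRIM21 and TAP2. Without the filter on signal the medians (log2) were 1.43 for interferon, -0.28 for ZNF, -0.0024 for histone and -0.16 for RNA polymerase genes, and 6 polymerase genes were lower. In that fit 39 interferon, 37 cell cycle and 9 microRNA machinery genes were called higher, and 83 ZNF and 10 histone genes lower. The mean of all probe sets gave -0.24 for polymerase genes. Leaving out 1 array moved the polymerase median between -0.49 and -0.16 and the ESCRT median between -0.36 and -0.15, and the counts of AGO2-bound calls between 2430 and 3002. The cause of these shifts was not tested, except that no filter adds genes at the floor. All 3 scalings left the AGO2-bound median between -0.012 and 0.021. Quantile normalization and centring bring the array medians together by construction, so this range says little about how the scaling matters. Signal at the floor limits dim genes: 40.4% to 41.0% of probe sets lay there on the AGO2 arrays.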
